A study of Bos taurus with 8 samples.

Results

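The translation initiation factors are the proteins that bring a ribosome, the initiator tRNA and an mRNA together at a start codon. Their transcripts were followed here in bovine mammary epithelial cells in which EEF1D was targeted by RNA interference. Members were chosen by array annotation alone: every probe whose gene name starts with EIF and a digit was taken, and the EIF2AK kinases, the EIF2C argonautes and the EIF4EBP genes were left out. This gave 122 of 43653 probes, for 46 of the 16523 genes named on the array. Of these, 44 genes had a probe well above background on at least 2 arrays and were tested, among 12609 genes tested in all. EIF1AY was well above background on 0 arrays and EIF2S3Y on 1 array, and neither was tested. EIF3CL is the RefSeq symbol of a bovine gene whose synonyms include EIF3C, and EIF5B is not among the array's gene names.

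The EEF1D-1357 group (3 arrays) and the EEF1D-1893 group (3 arrays) each carried a short hairpin RNA (shRNA) against EEF1D and are labelled as its knockdown, and the control group (2 arrays) had no shRNA by its labels. EEF1D encodes the delta subunit of elongation factor 1, which acts after initiation, in the exchange of nucleotide on eEF1A. All 3 groups were fifth-passage primary cells from the mammary tissue of a lactating Holstein cow, so they share a tissue source, and no non-targeting hairpin is named in the labels. The labels do not say whether replicates were separate cultures, and the p-values may then cover technical spread alone.

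On each 1-colour array, the values are log2 of Agilent's processed Cy3 signal minus that array's 75th percentile, called scaled log2 signal below, so 0 is the 75th percentile. Each gene is represented by its brightest probe, and signals of different probes are not compared as levels. Differences were tested with limma over all genes, two-sided, with Benjamini-Hochberg adjustment, and a gene was called at an adjusted p under 0.05. The number of arrays limits the precision. Between 60.6% and 71.5% of probes were well above background per array, and 0 were saturated.

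Several facts of the whole series bear on every result below. The target EEF1D was measured at 53.9% of control over both shRNAs (log2 fold change -0.89, SE 0.32, limma adjusted p = 0.243), which did not pass. The level was 50.5% with EEF1D-1357 and 57.6% with EEF1D-1893. Probes of EEF1D other than the brightest were at -1.16, -0.88 and -0.32 over both shRNAs. The brightest EEF1D probe had scaled log2 signals of 5.98, 5.87 and 5.11 with EEF1D-1357 and 6.001, 5.75 and 5.78 with EEF1D-1893, against 7.13 and 6.15 in the controls. Without control replicate 2 the EEF1D value was -1.38 and was called (adjusted p = 0.0378), and without control replicate 1 it was -0.40. The file headers place the EEF1D-1357 arrays with control replicate 2 on slide 1 and the EEF1D-1893 arrays with control replicate 1 on slide 2, so the comparison of the hairpins and the comparison of the slides cannot be told apart without the controls. The controls differed from each other more than arrays of one shRNA did: over the initiation factors, the SD of the log2 difference between them was 0.53, against 0.16 to 0.36 between arrays with the same shRNA. Control replicate 1 also had the lowest 75th percentile, 1265 intensity units against 1597 to 2078 in the other arrays. Luminal keratins KRT8 and KRT18 were well above background on all 8 arrays, whereas the luminal markers ELF5 and ESR1 were not measured. The summed luminal markers (8 of 10 measured) lay between 8.93 and 9.12 on the log2 scale in the shRNA arrays, against 9.86 and 9.02 in control replicates 1 and 2. The summed basal markers (8 of 8) lay between 7.25 and 8.34, against 8.21 and 8.28. Bright keratins make up most of that sum, and the median log2 fold change of the 8 basal markers was -0.61. The keratin KRT14 alone ran from 0.21 to 6.42 over the EEF1D-1893 arrays and 3.23 to 5.26 over the EEF1D-1357 arrays. The controls were at 4.85 and 6.93. For the myosin kinase MYLK (-3.50, SE 0.92, limma adjusted p = 0.171), all 6 shRNA arrays lay below both controls. Its scaled log2 signals ran from -4.82 to -1.54 in the shRNA arrays, against -0.99 and 0.57 in the controls. MYLK was well above background on all 8 arrays. The oxytocin receptor OXTR was so on only 2 arrays, the fewest that pass the filter. Its lower values in the shRNA arrays are therefore not read as a difference. The summed fibroblast markers (7 of 8) lay between 0.39 and 1.97, against 1.16 and 1.49. Among them, COL1A2 ran from -6.78 to 0.83 and LUM from -7.35 to -1.82 over the EEF1D-1893 arrays. In control replicates 1 and 2, COL1A2 was at -3.65 and 0.24 and LUM at -6.81 and -2.14. Each of these probes was well above background on 4 arrays. Of the other cell types looked for, 3 of 6 endothelial, 5 of 7 leukocyte and 3 of 5 adipocyte markers were measured, and 0 of these or of the markers above were called. The part of these markers in the results was not tested, and fewer cells of a type and less RNA per cell cannot be told apart in such bulk samples.

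As background, eIF1 and eIF1A sit on the small ribosomal subunit and guide the choice of start codon. eIF2 carries the initiator tRNA to it in a GTP-bound complex, and eIF2B recharges eIF2 with GTP. Phosphorylation of the alpha subunit of eIF2 makes it an inhibitor of eIF2B, which is the step at which stress kinases slow protein synthesis. eIF3 is the large scaffold on the small subunit. The eIF4 group binds the mRNA cap and unwinds the leader: eIF4E holds the cap, eIF4G is the scaffold, eIF4A is the helicase, and eIF4B and eIF4H assist the helicase. eIF5 triggers GTP hydrolysis on eIF2, and eIF6 keeps the large subunit from joining early. In the lactating gland, phosphorylation of eIF2 and release of eIF4E from its binding proteins are known points of control of milk protein synthesis, and neither can be read from mRNA levels.

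No initiation factor passed the test with either shRNA or with both. For both shRNAs against control, limma called 0 of 44 at an adjusted p under 0.05 (0% of all genes, 0 of 12609), and the smallest adjusted p was 0.162. At an unadjusted p under 0.05 there were 8 of 44, or 18.2%, beside 16.9% of all genes, which is close to that background. Those 8 were EIF2S1, EIF3J, EIF4E and EIF4G2 on the higher side (9.09%, beside 7.40% of all genes) and EIF3D, EIF4B, EIF4ENIF1 and EIF4G3 on the lower side (9.09%, beside 9.52%). All 6 shRNA arrays lay above both controls for 5 genes (11.4%, beside 7.76%): the 4 just named and EIF5A2. They lay below both controls for 5 genes (11.4%, beside 9.07%): the 4 just named and EIF3A. Of the 44, 24 had a log2 fold change above 0, or 54.5%, beside 42.9% of all genes. The median was 0.06, beside -0.07 over all genes. These counts of calls depended on the controls. Without control replicate 2, 15 of 44 members and 2933 of all 12609 genes were called, and without control replicate 1, 0 members and 26 genes. The 15 were EIF2A, EIF2S1, EIF2S3, EIF3J, EIF3M and EIF4E on the higher side and EIF2B5, EIF3B, EIF3D, EIF3K, EIF4B, EIF4E1B, EIF4ENIF1, EIF4G1 and EIF5A on the lower side. With slide as a block, EIF2S1, EIF3J and EIF4E were called among 700 genes, in a model whose residual spread holds no difference between the controls.

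**Figure D1:**
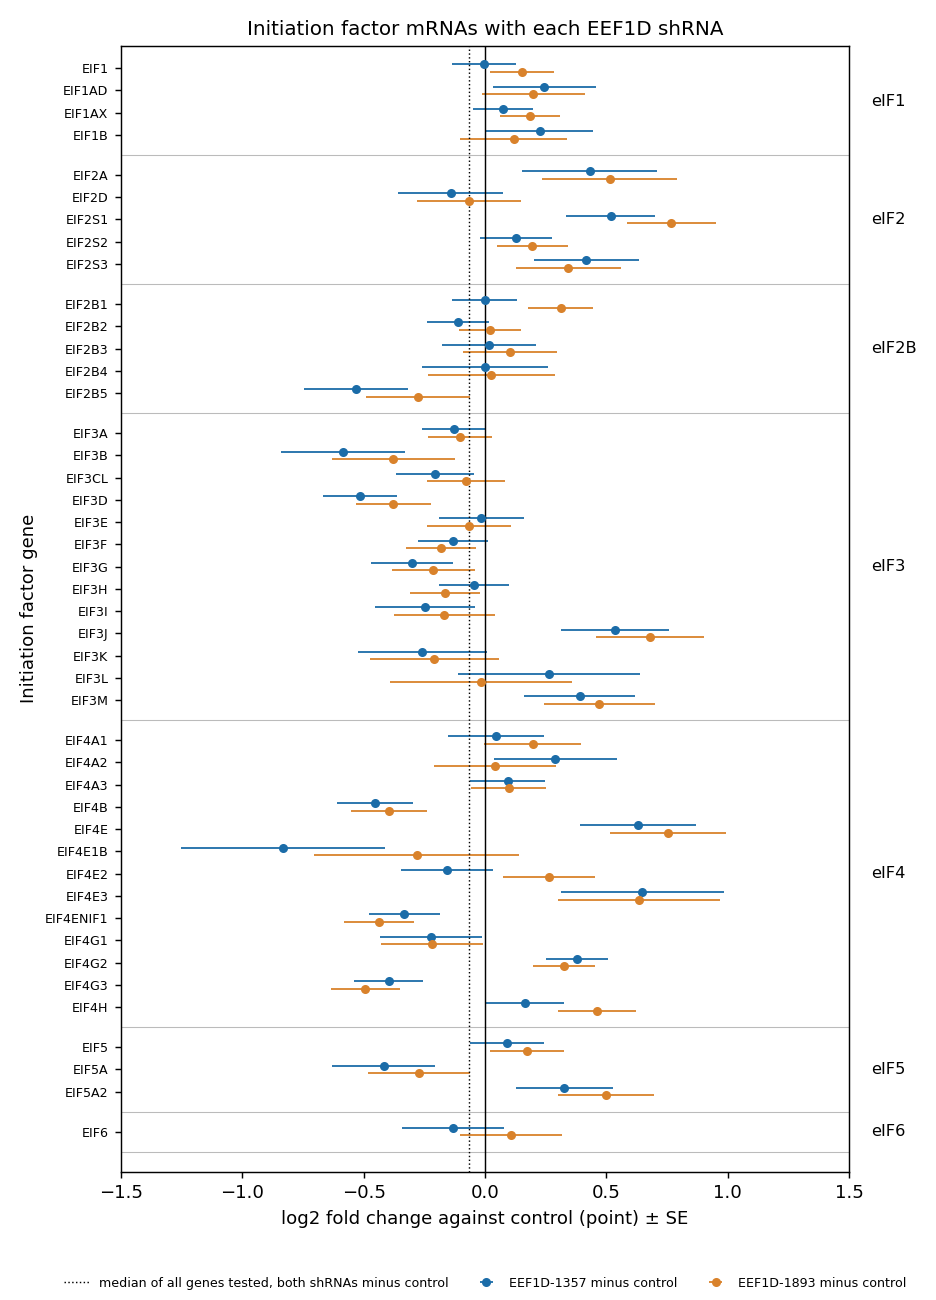
Log2 fold change (horizontal axis) of the 44 tested initiation factor genes, one row a gene and grouped by complex, with EEF1D-1357 minus control in blue and EEF1D-1893 minus control in orange; bars are SE from limma and the dotted line is the median over all genes for both shRNAs, -0.07. Most genes lie within 0.5 of 0, EIF2S1, EIF3J, EIF4E and EIF4E3 lie furthest to the right, and EIF4E1B, a dim probe, has the widest bars.

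The hairpins share both control arrays, so their values are given side by side and not as separate support. With EEF1D-1357, 8 of 44 had an unadjusted p under 0.05 (18.2%, beside 16.2% of all genes), 0 were called, and the median was -0.00, beside -0.09 over all genes. By direction there were 4 higher (9.09%, beside 6.27%) and 4 lower (9.09%, beside 9.88%), and 20 of 44 lay above 0 (45.5%, beside 41.6%). Its arrays did not overlap the controls for 6 members on the higher side (13.6%, beside 12.3%) and 9 on the lower side (20.5%, beside 18.3%). With EEF1D-1893 there were 10 of 44 (22.7%, beside 14.1%), again with 0 called, and the median was 0.07, beside -0.03 over all genes. By direction there were 6 higher (13.6%, beside 6.83%) and 4 lower (9.09%, beside 7.26%), and 25 of 44 lay above 0 (56.8%, beside 46.9%). Its arrays did not overlap the controls for 10 members on the higher side (22.7%, beside 13.7%) and 6 on the lower side (13.6%, beside 14.5%). Directly between the hairpins, 2 of 44 had an unadjusted p under 0.05 (4.55%, beside 6.41%), both lower with EEF1D-1357 (beside 3.82%) and 0 higher (beside 2.59%), and 0 were called. The difference was above 0 for 12 of 44 (27.3%, beside 41.6%). All 3 EEF1D-1357 arrays lay below all 3 EEF1D-1893 arrays for 9 of 44 (20.5%, beside 14.8%) and above them for 0 of 44 (beside 6.76%).

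The 3 subunits of eIF2 and the other tRNA carriers had the highest median of the 7 groups, 0.38 over both shRNAs, with 4 of 5 genes above 0. EIF2S1, the alpha subunit that stress kinases phosphorylate, had scaled log2 signals of 2.94, 2.95 and 3.08 with EEF1D-1357 and 3.25, 3.23 and 3.23 with EEF1D-1893, against 2.19 and 2.75 in the controls. Every shRNA array lay above both controls, and the controls differed from each other by more than any pair of shRNA arrays with the same hairpin. The log2 fold change was 0.64 (SE 0.16, 1.56-fold), with the smallest limma adjusted p of the 44, 0.162. EIF2S3, the gamma subunit that binds GTP and the initiator tRNA, had 4.75, 4.90 and 4.75 with EEF1D-1357 and 4.74, 4.66 and 4.78 with EEF1D-1893, against 4.02 and 4.74 in the controls. Control replicate 2 fell inside the range of the shRNA arrays and control replicate 1 lay below all of them. The log2 fold change was 0.38 (SE 0.19, limma adjusted p = 0.357). EIF2A, a separate factor that can deliver the initiator tRNA outside eIF2, had 1.24, 1.40 and 1.48 with EEF1D-1357 and 1.32, 1.48 and 1.57 with EEF1D-1893, against 0.45 and 1.43 in the controls, so again control replicate 1 alone stood apart. Its log2 fold change was 0.47 (SE 0.25, limma adjusted p = 0.371). The beta subunit EIF2S2 (0.16) and EIF2D (-0.10), another tRNA carrier, did not pass either.

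The eIF2 values depended on control replicate 1. Without it the median of the 5 genes was -0.01, with 2 above 0, and without control replicate 2 it was 0.74. Without control replicate 1 EIF2S1 was at 0.36, EIF2S3 at 0.02 and EIF2A at -0.02, and without control replicate 2 all 3 were called (limma adjusted p between 0.014 and 0.0176). Within slide 1, against control replicate 2, EIF2S1 differed by 0.24, and within slide 2, against control replicate 1, by 1.05.

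EIF2S1 has 2 probes on this array, and their log2 fold changes had opposite signs. They are shown because they overlap on chromosome 10 of build Btau_3.1, plus strand, with capitals marking the 24 bases they share by position.
A_73_105561, chr10:81559857-81559916: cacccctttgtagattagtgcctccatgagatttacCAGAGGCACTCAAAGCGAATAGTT
A_73_P504213, chr10:81559893-81559952: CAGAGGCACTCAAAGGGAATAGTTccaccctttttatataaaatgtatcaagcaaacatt
The shared stretch differs by 1 substitution, C52G, counted from 1 at the 5′ end of A_73_105561, with that probe's base first. A_73_105561 is the brightest probe and gave the values above. A_73_P504213 had -4.28, -3.46 and -3.49 with EEF1D-1357 and -2.89, -3.37 and -2.89 with EEF1D-1893, against -4.08 and -2.66 in the controls, with overlapping groups and a log2 fold change of -0.02 (SE 0.40). This second probe was dim and its SE wide, and whether the 2 probes differ was not tested. With the mean of both probes in place of the brightest, EIF2S1 was at 0.31 (limma adjusted p = 0.592).

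The 5 subunits of eIF2B, the exchange factor of eIF2, centred on 0, with a median of 0.01 and 3 of 5 above 0. EIF2B5, the epsilon subunit with the catalytic domain, had 1.02, 1.06 and 1.33 with EEF1D-1357 and 1.23, 1.37 and 1.58 with EEF1D-1893, against 1.96 and 1.39 in the controls. The EEF1D-1357 arrays lay below both controls and the EEF1D-1893 arrays spanned control replicate 2. The log2 fold change was -0.40 over both shRNAs (SE 0.19, limma adjusted p = 0.335), and -0.12 without control replicate 1. EIF2B1, the alpha subunit of the regulatory part, had 1.11, 1.09 and 1.23 with EEF1D-1357 and 1.52, 1.38 and 1.47 with EEF1D-1893, against 1.23 and 1.06 in the controls. It had the smallest p between the hairpins: EEF1D-1357 minus EEF1D-1893 was -0.31 (SE 0.12, limma adjusted p = 0.747), with no overlap between the 2 shRNA groups, and -0.14 with slide as a block. EIF2B2, the beta subunit, had 2.57, 2.55 and 2.42 with EEF1D-1357 and 2.73, 2.59 and 2.61 with EEF1D-1893, against 2.63 and 2.62 in the controls, a log2 fold change of -0.05 over both (SE 0.11). EIF2B3 (0.06) and EIF2B4 (0.01) were also close to 0.

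Of the 13 eIF3 subunits, 10 had a log2 fold change below 0 over both shRNAs, and the median was -0.14, beside -0.07 over all genes. The 3 above 0 were EIF3J (0.61), EIF3M (0.43) and EIF3L (0.12). EIF3D, the subunit known to bind the cap of selected mRNAs, had 5.74, 5.84 and 6.04 with EEF1D-1357 and 5.93, 6.03 and 6.07 with EEF1D-1893, against 6.50 and 6.28 in the controls. All 6 shRNA arrays lay below both controls, for a log2 fold change of -0.45 (SE 0.14, 0.734 of control, limma adjusted p = 0.208). The difference was alike within the slides, -0.40 on slide 1 and -0.49 on slide 2, and all 3 EIF3D probes were below 0, from -0.72 to -0.41. EIF3J, a loosely bound subunit near the decoding site, had 0.81, 0.94 and 0.98 with EEF1D-1357 and 1.01, 1.08 and 1.06 with EEF1D-1893, against -0.00 and 0.76 in the controls. The groups did not overlap, but control replicate 2 lay just below the lowest shRNA array. The log2 fold change was 0.61 (SE 0.20, 1.52-fold, limma adjusted p = 0.223), with 0.15 within slide 1 and 1.06 within slide 2. Its second probe, A_73_P080786, had 0.02, -0.04 and 0.05 with EEF1D-1357 and 0.06, 0.09 and 0.14 with EEF1D-1893, against -0.28 and -0.30 in the controls. On that probe the controls were close together and all shRNA arrays lay above them, with a log2 fold change of 0.35 (SE 0.11, limma adjusted p = 0.19 over all probes). EIF3B, a core scaffold subunit, had 5.43, 5.38 and 5.51 with EEF1D-1357 and 5.74, 5.52 and 5.68 with EEF1D-1893, against 6.47 and 5.58 in the controls. Control replicate 2 lay among the EEF1D-1893 arrays. Its fitted log2 fold change was -0.48 (SE 0.23, limma adjusted p = 0.331), and -0.03 without control replicate 1.

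The low side of eIF3 also followed control replicate 1. Without that array the median of the 13 subunits was 0.00, with 7 above 0, and without control replicate 2 it was -0.32, with 3 above 0. Within slide 1 the median was 0.03 and within slide 2 it was -0.26. EIF3D was at -0.33 without control replicate 1 and at -0.56 without control replicate 2, where it was called (limma adjusted p = 0.0457), whereas EIF3J was at 0.23 and, without control replicate 2, at 0.99 and called (limma adjusted p = 0.014). EIF3A, the largest scaffold subunit, lay below both controls in all 6 shRNA arrays, but by only -0.12 (SE 0.12), and 4 of its 5 probes were below 0. Within the slides it differed by -0.13 (slide 1) and -0.10 (slide 2).

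The eIF4 group held 5 of the 8 genes with an unadjusted p under 0.05, among 13 genes, or 38.5% beside 16.9% of all genes, a share whose difference from the rest was not tested. Its median was 0.10. EIF4E, the cap-binding protein, had 2.48, 2.39 and 2.59 with EEF1D-1357 and 2.61, 2.55 and 2.67 with EEF1D-1893, against 1.44 and 2.27 in the controls. All 6 shRNA arrays were above both controls, and the controls were 0.83 apart. This gave a log2 fold change of 0.69 (SE 0.21, 1.61-fold, limma adjusted p = 0.211), the largest of the 44. It was 0.28 without control replicate 1 and 1.11 without control replicate 2, where it was called (limma adjusted p = 0.014), with 0.22 within slide 1 and 1.17 within slide 2.

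All 3 EIF4E probes on the array had a log2 fold change above 0, but they read nearly the same bases. They are shown with the 39 bases common to all 3 by position in capitals (chromosome 6, Btau_3.1, plus strand).
A_73_P359651, chr6:27514835-27514894: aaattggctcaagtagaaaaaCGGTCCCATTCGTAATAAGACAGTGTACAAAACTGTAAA
A_73_P328826, chr6:27514839-27514898: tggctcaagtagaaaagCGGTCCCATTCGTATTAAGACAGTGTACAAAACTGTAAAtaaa
A_73_P039261, chr6:27514856-27514915: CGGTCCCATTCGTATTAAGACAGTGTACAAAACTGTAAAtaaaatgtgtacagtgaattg
The brightest, A_73_P328826, differs from A_73_P359651 by the substitutions G17A and T32A, counted from its own 5′ end, and from A_73_P039261 by 0 substitutions. Their log2 fold changes over both shRNAs were 0.55, 0.69 and 0.62 in the order printed. These are not 3 separate readings of the transcript.

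Among the 8 genes with an unadjusted p under 0.05, the controls lay closest together for EIF4G2 and EIF4G3, both related to the scaffold eIF4G1. EIF4G2, which lacks the site for eIF4E and serves initiation without it, had 6.18, 6.21 and 6.23 with EEF1D-1357 and 6.12, 6.07 and 6.27 with EEF1D-1893, against 5.81 and 5.84 in the controls. The shRNA arrays lay above both controls, which were 0.03 apart. The shRNA arrays differed from control by a log2 fold change of 0.35 (SE 0.11, 1.28-fold, limma adjusted p = 0.222), with 0.36 within slide 1 and 0.34 within slide 2. EIF4G3 had 1.57, 1.56 and 1.54 with EEF1D-1357 and 1.56, 1.55 and 1.27 with EEF1D-1893, against 1.95 and 1.96 in the controls. Its shRNA arrays lay below both controls, which were 0.01 apart. Its fitted log2 fold change was -0.45 (SE 0.13, 0.734 of control, limma adjusted p = 0.193), with -0.40 within slide 1 and -0.49 within slide 2.

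The other probes of EIF4G2 and EIF4G3 gave smaller or opposite values in part. The brightest probes of EIF4G2, EIF4G3 and EIF3D are shown. Among the 8 genes with an unadjusted p under 0.05, their values were the most alike on both slides.
EIF4G2, A_73_115006, chr15:40896035-40896094, plus strand: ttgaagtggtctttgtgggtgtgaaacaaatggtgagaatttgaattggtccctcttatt
EIF4G3, A_73_P095561, chr2:136315885-136315944, plus strand: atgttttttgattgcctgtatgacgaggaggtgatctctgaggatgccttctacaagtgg
EIF3D, A_73_107867, chr5:80553630-80553689, minus strand: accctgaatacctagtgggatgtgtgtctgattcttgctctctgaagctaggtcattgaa
EIF4G2 had 7 probes well above background on all arrays. The 3 that lie furthest along its strand, from 40895460 to 40896094, were at 0.60, 0.64 and 0.35. The other 4, from 40888479 to 40893677, were at -0.05, -0.28, 0.09 and -0.05. Which exons or untranslated parts the probes lie in was not analysed here. The 7 probes also differ in base composition, from 35.0% to 45.0% GC, with 38.3% for A_73_115006. Over the member probes, those under 40% GC had the higher median difference, as given below. The part of position and of GC content in these 7 values was not tested. The mean of the 7 was 0.19 (limma adjusted p = 0.437). EIF4G3 had 3 kept probes, all below 0, at -0.18, -0.09 and, for the one furthest along the strand, -0.45.

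**Figure D2:**
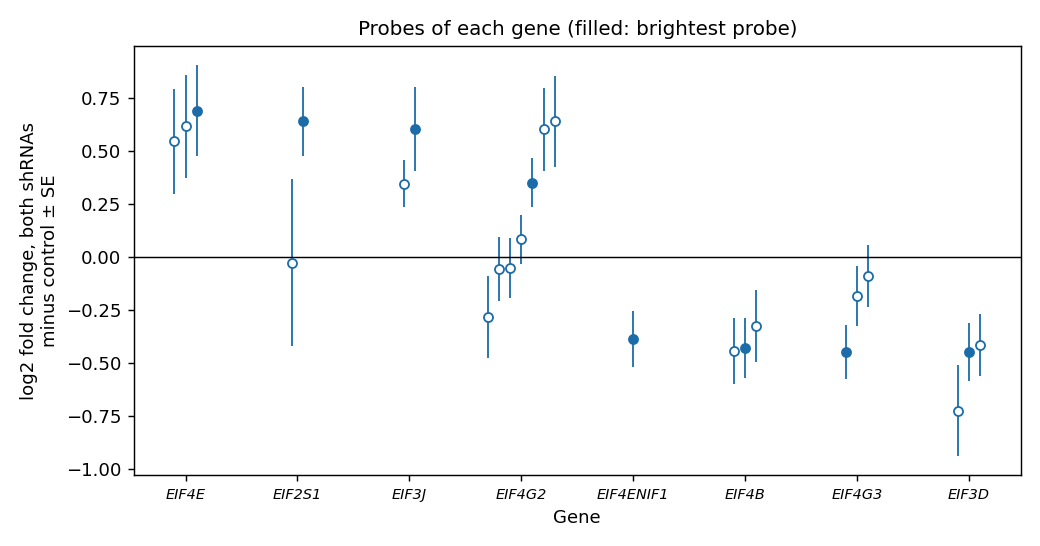
Log2 fold change of both shRNAs minus control (vertical axis) for every kept probe of the 8 genes with an unadjusted p under 0.05; filled points are the brightest probe, open points the others, and bars are SE from limma. The probes of EIF4E, EIF3J, EIF4B, EIF4G3 and EIF3D share a sign within the gene, those of EIF2S1 and EIF4G2 do not, and EIF4ENIF1 has 1 kept probe.

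In the rest of the eIF4 group, EIF4B and EIF4ENIF1 are named after their values were seen, and EIF4H and EIF4E2 for their place among the 4 smallest p-values between the hairpins. EIF4B, which stimulates the helicase, had 3.89, 3.71 and 3.72 with EEF1D-1357 and 3.87, 3.74 and 3.88 with EEF1D-1893, against 4.40 and 4.05 in the controls. This gave a log2 fold change of -0.43 (SE 0.14, limma adjusted p = 0.225), the slides gave -0.28 (slide 1) and -0.57 (slide 2), and all 3 of its probes were below 0. EIF4ENIF1, which shuttles eIF4E into the nucleus, was at -0.38 (SE 0.13, limma adjusted p = 0.229) on a dim probe. EIF4H, the other assistant of the helicase, had 3.34, 3.50 and 3.76 with EEF1D-1357 and 3.75, 3.91 and 3.83 with EEF1D-1893, against 3.35 and 3.39 in the controls. The EEF1D-1893 arrays lay above both controls, at 0.46 (SE 0.16, limma adjusted p = 0.298), whereas the EEF1D-1357 arrays overlapped them, at 0.16 (SE 0.16). The difference between the hairpins was -0.30 (SE 0.14, limma adjusted p = 0.747), so the hairpins were not shown to differ. EIF4E2, a cap-binding relative that represses translation, had 2.17, 2.08 and 2.38 with EEF1D-1357 and 2.75, 2.61 and 2.53 with EEF1D-1893, against 2.61 and 2.13 in the controls. The hairpin groups did not overlap, and EEF1D-1357 minus EEF1D-1893 was -0.42 (SE 0.17, limma adjusted p = 0.747). With slide as a block that difference turned to 0.058, so its direction depended on the controls. The helicases EIF4A1 (0.12), EIF4A2 (0.17) and EIF4A3 (0.10) and the main scaffold EIF4G1 (-0.22) had limma adjusted p between 0.564 and 0.752. EIF4E3, also named after its values were seen, was at 0.64 (SE 0.30, limma adjusted p = 0.329) on a dim probe. Its slides gave 0.50 (slide 1) and 0.78 (slide 2), and its EEF1D-1357 arrays overlapped the controls. EIF4E1B, an oocyte form, was well above background on 4 arrays. It had the lowest value of the 44, -0.56 (SE 0.38, limma adjusted p = 0.469).

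**Figure D3:**
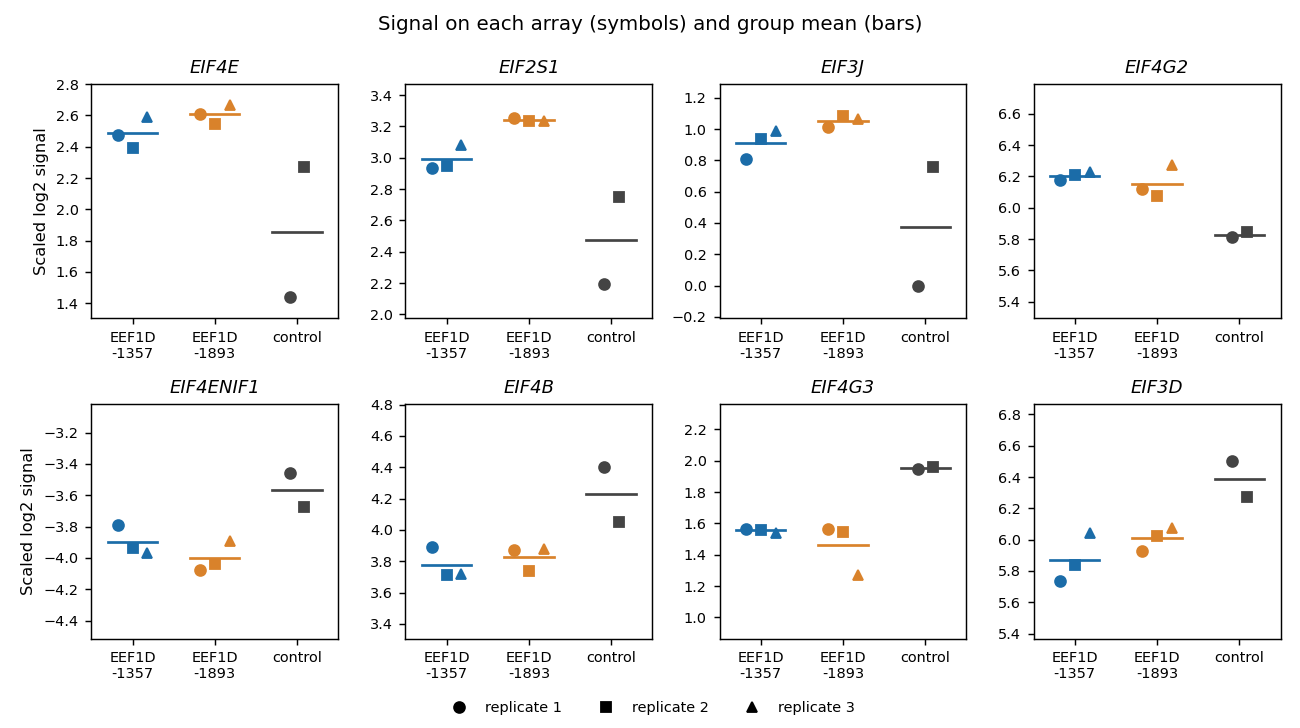
Scaled log2 signal (vertical axis, the same span of 1.5 in each panel) of the 8 genes with an unadjusted p under 0.05, by group from left to right EEF1D-1357, EEF1D-1893 and control; symbols are arrays and bars are group means. The controls are 0.56 to 0.83 apart for EIF2S1, EIF3J and EIF4E and 0.01 to 0.35 apart for the other 5 genes.

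The eIF1 group, which includes the scanning factors, had all 4 tested genes above 0 over both shRNAs, with a median of 0.15 and a smallest limma adjusted p of 0.56. EIF1AD, an eIF1A-domain protein, had 3.00, 2.73 and 2.51 with EEF1D-1357 and 2.76, 2.66 and 2.68 with EEF1D-1893, against 2.77 and 2.24 in the controls, and a log2 fold change of 0.22 (SE 0.19). EIF1AX, which encodes eIF1A, had 6.14, 6.22 and 6.25 with EEF1D-1357 and 6.33, 6.30 and 6.32 with EEF1D-1893, against 6.08 and 6.18 in the controls, and a log2 fold change of 0.13 (SE 0.11). EIF1B, a close relative of EIF1, had 2.19, 1.96 and 1.68 with EEF1D-1357 and 2.07, 1.78 and 1.65 with EEF1D-1893, against 1.53 and 1.91 in the controls, and a log2 fold change of 0.17 (SE 0.20). For EIF1AD and EIF1B all groups overlapped. For EIF1AX the EEF1D-1893 arrays lay above both the EEF1D-1357 arrays and the controls, which overlapped each other. EIF1 itself was at 0.07.

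The eIF5 group and EIF6 gave no called gene. EIF5, the GTPase activator of eIF2, had 5.13, 5.10 and 5.01 with EEF1D-1357 and 5.21, 5.06 and 5.22 with EEF1D-1893, against 5.16 and 4.82 in the controls, and a log2 fold change of 0.13 (SE 0.14). All 4 of its probes were above 0, and the probe A_73_P260926, chosen after its values were seen, had the smallest p. It read 3.18, 3.19 and 3.11 with EEF1D-1357 and 3.29, 3.30 and 3.47 with EEF1D-1893, against 2.61 and 2.70 in the controls, with no overlap. That probe's log2 fold change was 0.60 (SE 0.12, limma adjusted p = 0.132 over all probes). EIF5A, the hypusinated factor that also acts in elongation, had 6.58, 6.40 and 6.63 with EEF1D-1357 and 6.70, 6.62 and 6.72 with EEF1D-1893, against 7.29 and 6.61 in the controls. Its log2 fold change was -0.35 (SE 0.19, limma adjusted p = 0.386), and -0.00 without control replicate 1. EIF5A2, its less widely expressed relative, had -3.15, -3.11 and -2.83 with EEF1D-1357 and -2.62, -3.14 and -2.81 with EEF1D-1893, against -3.24 and -3.47 in the controls. Its shRNA arrays lay above both controls, with a log2 fold change of 0.41 (SE 0.18, limma adjusted p = 0.301). The slides gave 0.44 (slide 1) and 0.39 (slide 2). EIF6 had 5.49, 5.44 and 5.72 with EEF1D-1357 and 6.02, 5.71 and 5.63 with EEF1D-1893, against 5.94 and 5.42 in the controls, and a log2 fold change of -0.01 (SE 0.19).

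Relatives such as EIF1 and EIF1B, EIF4A1 and EIF4A2, or EIF5A and EIF5A2 have similar sequences, and whether their probes also bind the relative's transcript was not tested. Of the 36 genes with more than 1 kept probe, 22 had probes of 1 sign over both shRNAs and 14 had probes of both signs: EIF2B2, EIF2B4, EIF2S1, EIF3A, EIF3B, EIF3E, EIF3I, EIF3L, EIF4A1, EIF4A2, EIF4E2, EIF4G1, EIF4G2 and EIF5A. Signs were counted whatever the size of the value, such as -0.02 for a probe of EIF2S1 and -0.05 for a probe of EIF2B2.

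**Figure D4:**
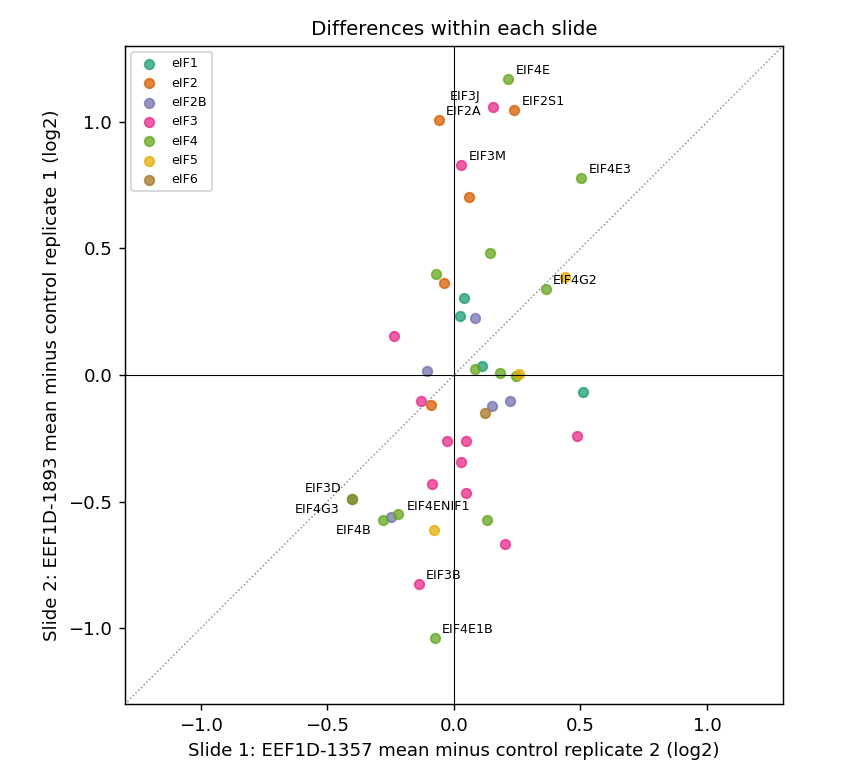
Differences of means within each slide for the 44 genes, with slide 1 (EEF1D-1357 minus control replicate 2, log2) on the horizontal axis and slide 2 (EEF1D-1893 minus control replicate 1, log2) on the vertical axis, coloured by complex; the dotted line marks equal differences. Values span -0.40 to 0.51 on slide 1 and -1.04 to 1.17 on slide 2, and EIF3D and EIF4G3 fall at almost the same point. Among the labelled genes, EIF4G2, EIF3D and EIF4G3 lie nearest the line. Unlabelled genes such as EIF5A2 and EIF3A also lie near it.

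The base composition of the probes moved with the difference between the controls. Over the 110 member probes well above background on all arrays, Pearson's r between percent GC and control replicate 1 minus control replicate 2 was 0.389 (0.369 over 25411 probes of all genes), a description across probes that share arrays. Against the log2 difference of both shRNAs and control it was -0.352 over the member probes (-0.227 over all probes). Within slide 1 it was -0.085 (0.070 over all probes), and within slide 2 it was -0.388 (-0.35 over all probes). The 33 member probes under 40% GC had a median difference of 0.24, and the other 77 had -0.06. Over all probes, the same split gave 0.116 and -0.096. With each array centred on probes of like GC content, an alternative chosen after seeing the data, the median of the 44 genes was 0.09 and 0 were called, EIF2S1 was at 0.73, EIF4E at 0.60 and EIF3J at 0.67. The eIF2 median was then 0.25 in place of 0.38, and the eIF3 median -0.05 in place of -0.14.

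None of the measured genes that act on these factors was called. Of 37 kinases, binding proteins, recycling factors and targets on a list of the wider initiation pathway, 35 were measured (EIF4EBP2 and EIF4EBP3 were not), and limma called 0 for both shRNAs against control, with a median of -0.03. At an unadjusted p under 0.05, 4 were higher (beside 7.40% of all genes) and 4 lower (beside 9.52%), and those beyond the 4 smallest p-values (PAIP1, DENR, PABPC1 and PAIP2) are named after their values were seen. On the higher side were PAIP1 (0.55) and PAIP2 (0.59), which bind the poly(A)-binding protein, the reinitiation factor DENR (0.53) and the ribosome recycling factor ABCE1 (0.41). On the lower side were the poly(A)-binding protein PABPC1 (-0.44), the eIF2 kinase EIF2AK2 (-0.59), the transcription factor ATF4 (-0.49), whose mRNA is preferentially translated when eIF2 is phosphorylated, and the kinase MTOR (-0.28). Within slides 1 and 2, PAIP1 was at 0.29 and 0.82 and PAIP2 at 0.27 and 0.91. DENR was at 0.40 and 0.66 and ABCE1 at 0.19 and 0.63. EIF2AK2 was at -0.21 and -0.97 and ATF4 at -0.24 and -0.75. PABPC1 (-0.41 and -0.47) and MTOR (-0.26 and -0.30) were more alike on the slides. PABPC1 had 6.30, 6.54 and 6.47 with EEF1D-1357 and 6.32, 6.40 and 6.65 with EEF1D-1893, against 6.92 and 6.85 in the controls, all below them. ATF4 had 5.38, 5.42 and 5.59 with EEF1D-1357 and 5.55, 5.48 and 5.63 with EEF1D-1893, against 6.30 and 5.70 in the controls, and here control replicate 2 lay just above the highest shRNA array. The binding protein EIF4EBP1, which holds eIF4E back, was at -0.11 (SE 0.19).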

How the data were processed

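Total RNA of 8 samples was labelled with Cy3 and hybridised to 1-colour Agilent bovine arrays, per the labels' protocols. The deposited scanner files hold intensity values and 0 or 1 flags per spot, made with Feature Extraction 10.7.3.1 per the file headers (version 9.1 per the submitters' processing notes), with background subtraction and detrending, and place probes on Btau_3.1. The authors' deposited log2 table, whose normalization is not given in the sources used here, correlated with the scanner values at 0.998 to 1.000 per array, had a median of 7.56 in each column and served as an alternative.

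Log2 processed signal minus the array's 75th percentile was used. Control spots and probes with an outlier spot were left out, leaving 30702 probes that passed the background flag on 2 or more arrays, 25536 of them with a gene name. The brightest probe stood for its gene, so probes that disagree are given in the text. limma 3.58.1 in R 4.3.3 fitted all 8 arrays in 1 model (5 residual degrees of freedom), with Benjamini-Hochberg adjustment over 12609 genes. On simulated data, 44 of 100 genes given a log2 change of 1 were called for both shRNAs. The single hairpins gave 32 with EEF1D-1357 and 33 with EEF1D-1893. Changes of the size seen here can therefore go uncalled. The simulation drew independent noise with the same spread in every group, whereas the real controls differed more. Another 100 genes were given a log2 change of 2. For both shRNAs, 4.92% of its unchanged genes had an unadjusted p under 0.05, beside 16.9% of all genes in the data. Its counts are therefore not the share of real changes that these data would call. RefSeq (assembly ARS-UCD2.0) served for names only.

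Per-array values are given for up to 3 genes of each complex with the smallest p for both shRNAs, up to 4 with the smallest p between the hairpins, any called member, and EEF1D. The members and lists were chosen with earlier results of these data known. Alternatives changed the background correction, normalization, probe filter, probe choice, variance model, blocks and arrays. Samples were not treated as paired by replicate number in the main model.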

Additional observations from a re-analysis of the deposited data

Results flagged for a closer look

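One value lay outside the tests. The probe of EIF2S3Y, a copy of the gamma subunit of eIF2 on the Y chromosome, was well above background on 1 array, EEF1D-1893 replicate 2, where its scaled log2 signal was -5.36. It read -8.11, -7.42 and -7.22 with EEF1D-1357 and -7.43 and -8.25 in the other EEF1D-1893 arrays, against -7.70 and -7.68 in the controls. The cells came from a cow, which has no Y chromosome, so this signal is not read as the transcript of EIF2S3Y. What the probe bound was not tested.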

How the results depend on the processing

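Only 2 control arrays, 1 on each slide, limit every comparison. Leaving one out leaves a lone control that is assumed to vary like the other groups. For both shRNAs against control, the number of called initiation factors ran over 0 to 15 and that of all genes over 0 to 2933 when 1 array was left out. With EEF1D-1357 they ran over 0 to 15 and 0 to 2916, and with EEF1D-1893 over 0 to 11 and 0 to 1852. The highest counts came without control replicate 2 in each case. The median of the initiation factors then ran over -0.089 to 0.085 for both, -0.13 to 0.049 with EEF1D-1357 and -0.036 to 0.13 with EEF1D-1893, and EEF1D over -1.38 to -0.40 for both and -1.47 to -0.50 with EEF1D-1357.

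Over all 44 initiation factors, the log2 fold change turned sign without 1 array or another for 20 genes with both shRNAs, 19 with EEF1D-1357, 21 with EEF1D-1893 and 12 between the hairpins. Among the 21 genes named by the rule, those that turned were, for both shRNAs, EIF1AD (-0.045 to 0.49), EIF1B (-0.015 to 0.36), EIF2A (-0.019 to 0.96), EIF4E2 (-0.19 to 0.29), EIF5 (-0.036 to 0.30) and EIF6 (-0.27 to 0.24). With EEF1D-1357 they were EIF1AD (-0.023 to 0.51), EIF2A (-0.060 to 0.92), EIF2B1 (-0.086 to 0.084), EIF4E2 (-0.40 to 0.082), EIF5 (-0.077 to 0.26) and EIF6 (-0.39 to 0.12). With EEF1D-1893 they were EIF1AD (-0.068 to 0.47), EIF1B (-0.069 to 0.30), EIF2B2 (-0.022 to 0.047), EIF2B5 (-0.56 to 0.0080), EIF2S3 (-0.016 to 0.70), EIF3B (-0.83 to 0.069), EIF5A (-0.61 to 0.068) and EIF6 (-0.15 to 0.36). Between the hairpins they were EIF1AD (-0.083 to 0.16) and EIF1B (-0.017 to 0.24).

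With slide as a block, 700 genes and 3 initiation factors were called for both shRNAs, 28 genes with EEF1D-1357, 1852 genes and 11 initiation factors with EEF1D-1893 (median -0.036), and 6 genes between the hairpins (median 0.088). For a single hairpin, that block compares only with the control on the same slide, so it repeats the fit without the other control. Signs turned with the block for 13 of the 44 with EEF1D-1357, 6 with EEF1D-1893 and 26 between the hairpins. Of the 21 named genes these were EIF2A (-0.060), EIF2B1 (0.084), EIF4E2 (0.082) and EIF6 (0.12) with EEF1D-1357 and EIF1AD (-0.068) and EIF6 (-0.15) with EEF1D-1893. Between the hairpins they were EIF1B (-0.27), EIF2B5 (0.31), EIF2S3 (-0.64), EIF3B (0.69), EIF3D (0.088), EIF4E2 (0.058), EIF5 (0.25), EIF5A (0.54), EIF5A2 (0.054) and EIF6 (0.27). Slide 1 alone gave the same EIF2A, EIF2B1, EIF4E2 and EIF6 values as this block with EEF1D-1357 (-0.060, 0.084, 0.082 and 0.12), and slide 2 alone gave a median of -0.036, with EIF1AD at -0.068, EIF2B2 at 0.015 and EIF6 at -0.15.

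Of the scalings, median scaling moved the median of all genes with EEF1D-1357 to 0.03 from -0.09, and put the initiation factor median at 0.13 for both shRNAs, 0.11 with EEF1D-1357 and -0.0078 between the hairpins. For both shRNAs it turned 3 of the 44, EIF2B2 (0.033), EIF3E (0.038) and EIF6 (0.066). With EEF1D-1357 it turned 6, among them the named EIF2B1 (0.11) and EIF2B2 (0.0040). Of the named genes that turned elsewhere, EIF6 for both shRNAs was at 0.12 with normexp, 0.045 with quantile normalization, 0.047 in the deposited table and 0.15 GC-centred. EIF2B1 with EEF1D-1357 was at 0.039 with normexp, 0.012 with quantile normalization, 0.015 in the deposited table and 0.16 with the mean of a gene's probes. With that mean, EIF2B2 was at 0.024 and EIF4E2 at -0.020 for both. With normexp, EIF4H was at -0.0047 and EIF6 at 0.016 with EEF1D-1357, EIF1AD was at -0.0083 between the hairpins, and 1 gene was called there. GC-centred, EIF2B2 was at 0.046 for both, EIF4E2 at 0.0079 and EIF6 at 0.032 with EEF1D-1357, and 2 genes were called with EEF1D-1893. The cause of these turns was not tested.

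An intensity trend with a robust prior called 2 genes for both shRNAs and 2 with EEF1D-1357, array weights called 13 between the hairpins, and probes well above background on all 8 arrays gave 3 with EEF1D-1357. At an adjusted p under 0.1, 18 genes were called for both and 8 with EEF1D-1357. At an unadjusted p under 0.05 there were 2134, 2037, 1777 and 808 genes for both shRNAs, EEF1D-1357, EEF1D-1893 and between the hairpins, and 8, 8, 10 and 2 initiation factors. With the replicate number as a block, 0 genes were called in each comparison and the initiation factor median was 0.01 for both shRNAs. After centring within groups, the correlation of same-numbered samples ran over -0.115 to 0.142, and that of differently numbered samples over -0.142 to 0.0723. With 2 or 3 arrays in a group, centring constrains these values, so they cannot decide whether same-numbered samples were paired.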
